A study of Sus scrofa with 3 samples.

Results

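The ID genes (ID1, ID2, ID3 and ID4), the genes of their E protein partners (TCF3, TCF4 and TCF12) and NEUROG3 were taken by symbol from a table of 18730 pig genes, and all 8 had a single row. The table holds 3 libraries, S1, S2 and S3, which form 1 group: spermatogonia positive for SSEA4, taken from pigs at 90 days of age. SSEA4 is a glycolipid of the cell surface, by which the cells were sorted as a fraction enriched for spermatogonia. Undifferentiated spermatogonia, also named in the design, were not analysed here, so the levels are described within 1 population. Nothing in the labels tells whether separate animals gave the libraries. Errors and p-values therefore cover the spread among these 3 libraries alone, and part or all of it may be technical.

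ID proteins carry a helix-loop-helix domain for pairing but lack the basic region that contacts DNA. E proteins are broadly expressed basic helix-loop-helix (bHLH) factors that bind E-box sequences as pairs with each other or with tissue-specific bHLH factors. An ID protein that pairs with an E protein keeps it from DNA, so the balance of ID and E proteins sets how far bHLH factors can act. In mouse testis, ID4 marks the spermatogonial fraction richest in stem cells and is needed to maintain the stem cell pool, while NEUROG3, a tissue-specific bHLH factor, marks undifferentiated spermatogonia on the way to differentiation.

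Values are FPKM, that is fragments counted for a gene, divided by its length in kilobases and by the mapped fragments in units of 1000000. This scaling by length is meant to let levels of different genes be set side by side. How well it does so for these genes was not tested, and the order and ratios below rest on it. The read depth behind the values is unknown. Germ cell identity was visible in all libraries: the 7 measured germ cell markers had means of 24.7 to 145.5 FPKM, led by STK31 and ELAVL2. Somatic markers were also present, with the Sertoli cell genes CLU at 228 FPKM and VIM at 102 FPKM on average. Of the 10 measured Sertoli cell markers 7 lay above 1 FPKM and 3 below, shares near the 65.6% and 28.5% of all genes tested. The 3 below, named here after their values were seen, were FSHR, AMH and DHH, at 0.573, 0.377 and 0.0203 FPKM. In bulk libraries fewer cells of a type and less RNA per cell cannot be told apart, and the cells that a transcript came from cannot be separated.

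Transcripts of all 4 ID genes and all 3 E protein genes were present above 1 FPKM, and NEUROG3 lay below it. Means were tested on the scale of log2(FPKM + 1) against the level of 1 FPKM, with limma and Benjamini-Hochberg adjustment over 17949 genes at a threshold of 0.05. Of those genes, 65.6% lay above the level and 28.5% below it. The 7 of 8 genes above the level stand beside a background in which most genes do so, so their position among all genes is given as well. TCF12 and TCF3 had higher means than 94.96% and 94.2% of tested genes, ID3 than 87.0%, ID4 than 81.15%, ID2 than 79.4%, TCF4 than 75.55% and ID1 than 50.9%, whereas NEUROG3 was above 5.18%.

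**Figure D1:**
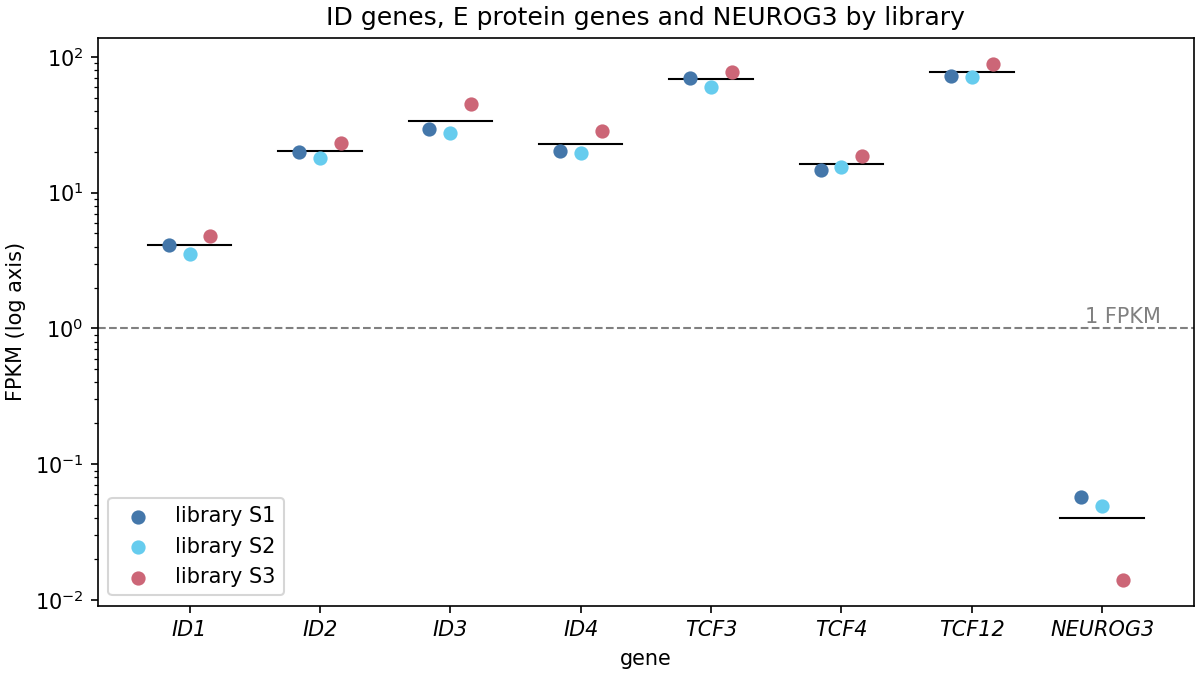
FPKM on a log axis for the 8 genes, with a point per library (S1, S2, S3) and a black line at the mean of the 3 libraries; the dashed line is 1 FPKM. The points of TCF12 and TCF3 lie between 59.9 and 89.0 FPKM, the points of NEUROG3 lie under 0.06 FPKM, and the 7 other genes are each highest in S3.

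ID3 was the most abundant ID transcript. It reached 29.4 FPKM in S1, 27.6 FPKM in S2 and 44.6 FPKM in S3, a mean of 33.9 ± 9.33 FPKM (SD, n = 3) and 4.09 above the level on the log2 scale (limma, adjusted p = 1.42e-06). S3 was the high library and S1 and S2 were close to each other.

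ID4 had 20.07 FPKM in S1, 19.5 FPKM in S2 and 28.4 FPKM in S3, a mean of 22.7 ± 5.01 FPKM. It too was highest in S3, and it lay 3.54 above the level (limma, adjusted p = 1.18e-06). ID2, an ID protein known from lymphoid and mammary development, had 19.99, 17.8 and 23.02 FPKM in S1, S2 and S3, a mean of 20.3 ± 2.61 FPKM. The ranges of ID4 and ID2 overlapped.

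ID1, a classical early target of BMP signalling, was the lowest of the family, with S1, S2 and S3 at 4.13, 3.51 and 4.77 FPKM, a mean of 4.14 ± 0.63 FPKM. It lay 1.35 above the level of 1 FPKM (limma, adjusted p = 3.05e-05), and it was not told apart from a level of 5 FPKM, at a log2 difference of -0.23 (limma, adjusted p = 0.0555). ID3 exceeded ID1 by 7.13 times in S1, 7.87 times in S2 and 9.35 times in S3.

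Among the E proteins, TCF12, also called HEB, had 72.1 FPKM in S1, 70.7 FPKM in S2 and 89.0 FPKM in S3, a mean of 77.3 ± 10.2 FPKM. TCF3, whose splice forms are E12 and E47, had 69.5, 59.9 and 77.4 FPKM in the same order, a mean of 68.9 ± 8.78 FPKM. These were the most abundant transcripts among the 8 genes, and the values are sums over splice forms.

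TCF4, also called E2-2 and distinct from the WNT effector TCF7L2, had 14.7 FPKM in S1, 15.4 FPKM in S2 and 18.7 FPKM in S3, a mean of 16.3 ± 2.14 FPKM. TCF12 exceeded it by 4.59 to 4.90 times within a library and TCF3 by 3.89 to 4.72 times. TCF12 made up 47.55% ± 1.24 (SD, n = 3) of the summed E protein FPKM, TCF3 42.4% ± 1.80 and TCF4 10.03% ± 0.57, so the composition varied little between libraries.

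NEUROG3 had 0.0574, 0.0491 and 0.0141 FPKM in the 3 libraries S1, S2 and S3, a mean of 0.0402 ± 0.0230 FPKM and 0.94 below the level (limma, adjusted p = 4.34e-07). The added 1 compresses this distance: with a pseudocount of 0.1 the log2 difference of NEUROG3 from the level was -2.99. It was the only one of the 8 genes that was lowest in S3. At values this near 0 and with the depth unknown, the difference between libraries cannot be read as one of expression.

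The order of the 8 genes was the same in 3 of 3 libraries: TCF12, TCF3, ID3, ID4, ID2, TCF4, ID1 and NEUROG3. Neighbours were compared within libraries, which makes the result free of the library's scale except for the pseudocount of 1. TCF3 exceeded ID3 by 1.03 ± 0.22 on the log2 scale (SD, n = 3), TCF4 exceeded ID1 by 1.75 ± 0.12 and ID1 exceeded NEUROG3 by 2.30 ± 0.20. In these 3 pairs the ranges of FPKM did not overlap. The pseudocount of 1 compresses the gap to NEUROG3. As ratios of FPKM within a library, ID1 over NEUROG3 was 71.6 to 339.1, against 3.57 to 4.385 for TCF4 over ID1. ID3 exceeded ID4 by 0.55 ± 0.08 and ID2 exceeded TCF4 by 0.30 ± 0.11, in 3 of 3 libraries each, though their ranges overlapped across libraries.

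The remaining neighbours were close. TCF12 minus TCF3 was 0.16 ± 0.10 on the log2 scale. ID4 minus ID2 was 0.14 ± 0.14, no more than its spread, with a ratio of 1.004 in S1, 1.09 in S2 and 1.235 in S3; without S3 the difference was 0.06. For each of the 7 pairs the exact two-sided sign-flip permutation test gave p = 0.25 (adjusted p = 0.25), the smallest that 3 libraries allow, so no pair could pass a threshold of 0.05.

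Summed over the family, ID transcripts reached 73.6 FPKM in S1, 68.4 FPKM in S2 and 100.9 FPKM in S3, and E protein transcripts 156.3, 145.9 and 185.1 FPKM in the same order. E protein transcripts were thus the more abundant set in every library. The ratio of the ID sum to the E protein sum was 0.471 in S1, 0.469 in S2 and 0.545 in S3, a mean of 0.495 ± 0.043 (SD, n = 3), and 0.470 without S3. It is a ratio within a library, so it does not depend on how the libraries were scaled, and it concerns transcripts and not protein.

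ID3 made up 41.5% ± 2.36 (SD, n = 3) of the ID sum, ID4 27.97% ± 0.63, ID2 25.3% ± 2.24 and ID1 5.16% ± 0.44. The share of ID3 was highest in S3, at 44.3%, against 39.99% in S1 and 40.4% in S2, and that of ID2 was lowest there, at 22.8%, against 27.15% and 26.03%. ID4 kept a nearly constant share, from 27.3% to 28.45%. Without ID3 the ratio of ID to E protein sums was 0.304 in S3, against 0.283 in S1 and 0.280 in S2.

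**Figure D2:**
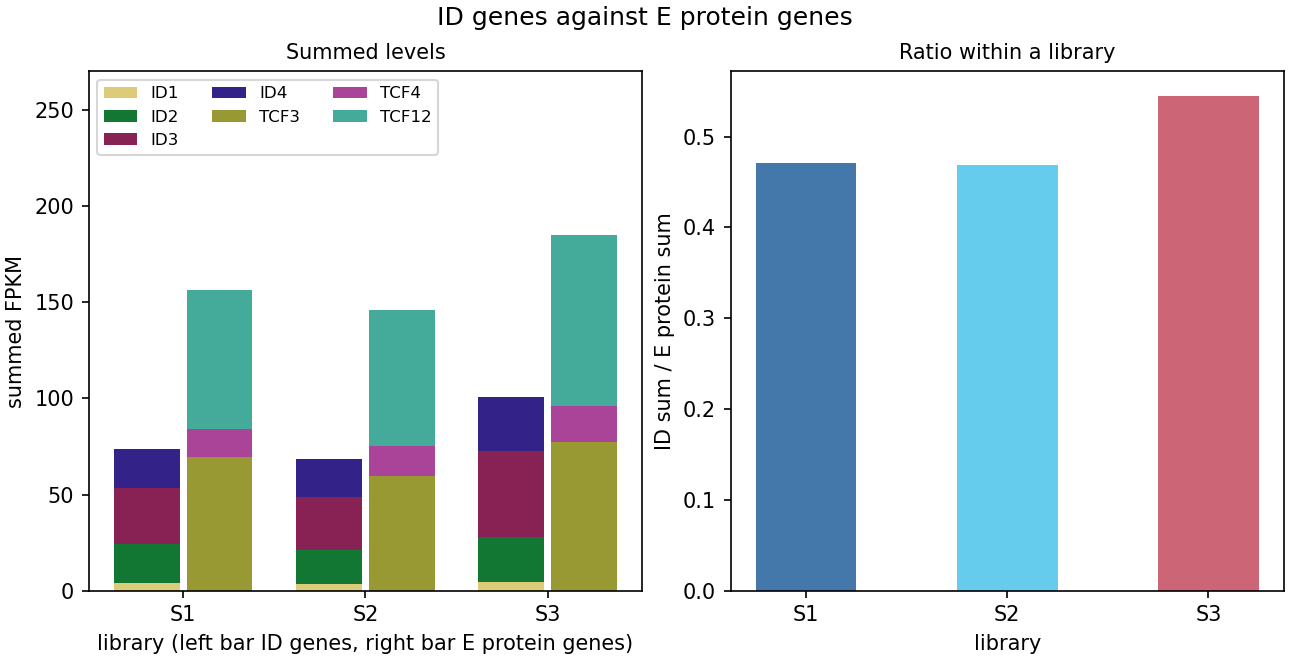
Left, summed FPKM of the ID genes (left bar) and of the E protein genes (right bar) in each library, with a colour per gene; right, the ratio of these sums within each library. The ID bar is lower than the E protein bar in every library, and the ratio is 0.545 in S3, against 0.471 in S1 and 0.469 in S2.

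The libraries did not match each other equally well, and the 7 expressed genes were each highest in S3. Of the 12340 genes that averaged 1 FPKM or more, 50.0% were higher in S3 than in both S1 and S2. The difference of log2(FPKM + 1) in S3 from the mean of S1 and S2 was 0.63 for ID3, above 99.1% of those genes, and 0.50 for ID4, above 97.8%. It was 0.31 for TCF12, 0.30 for TCF4, 0.27 for ID2, 0.26 for TCF3 and 0.26 for ID1, above 83.9% to 89.5% of the genes. With a single library on 1 side, these differences have no replicate check.

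The scale of the libraries moved the background but not the count for the 7 genes. After each library was rescaled to 1000000, 69.1% of the genes were highest in S3 and the median difference of all of them was 0.17 on the log2 scale, against 0.05 as deposited. When mitochondrially encoded and ribosomal protein genes were left out and the rest rescaled to the same total, 39.7% were highest in S3 and the median was -0.01. The 7 genes were highest in S3 under both. Relative to the median of all genes, ID3 was 0.58 higher in S3 as deposited, 0.59 after the rescaling and 0.58 after the removal, and ID4 was 0.45, 0.47 and 0.46 higher. Both changes multiply the remaining genes of a library by a common factor, which a difference from the median largely cancels. The values of each gene are therefore nearly alike by construction.

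The coefficient of variation between the 3 libraries was 27.5% for ID3 and 22.1% for ID4, larger than that of 94.1% and 89.7% of genes averaging 1 FPKM or more, whose median was 9.34%. For ID1, ID2, TCF3, TCF4 and TCF12 it lay between 12.7% and 15.2%.

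**Figure D3:**
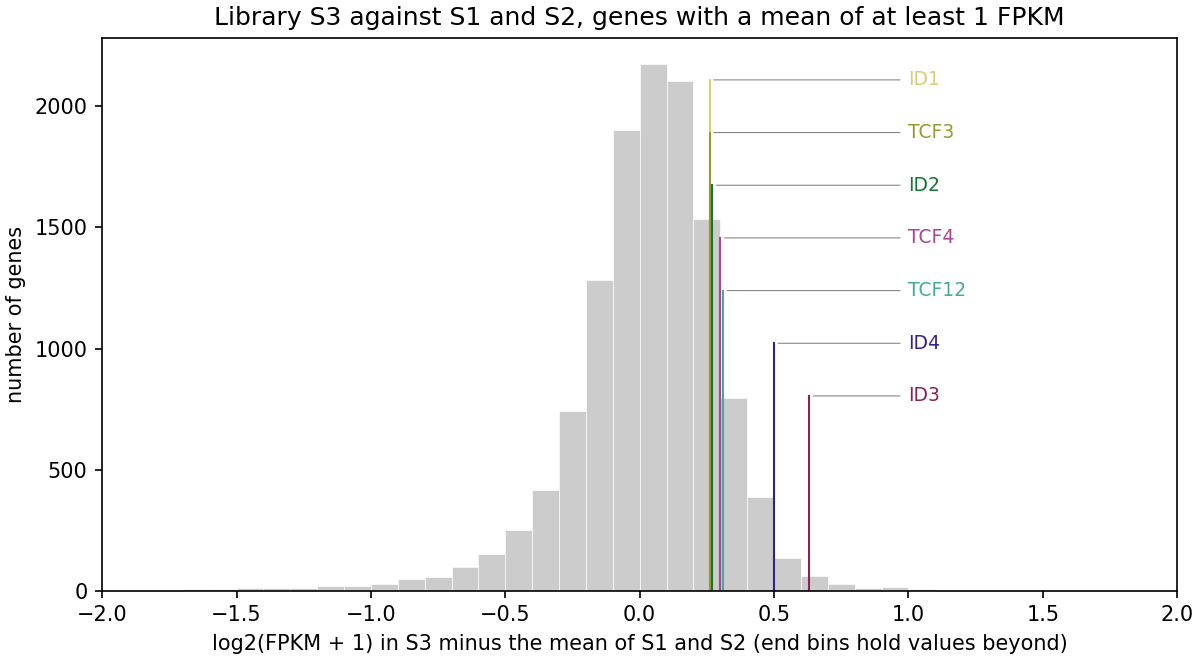
Histogram of the difference of log2(FPKM + 1) in S3 from the mean of S1 and S2 for the 12340 genes averaging 1 FPKM or more, with coloured lines at the ID and E protein genes (line heights only separate the labels). All 7 lie right of 0, with ID3 at 0.63 and ID4 at 0.50 farthest out.

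Markers of other cell types also differed between the libraries, and their part in these differences was not tested. The 10 measured Sertoli cell markers summed to 255 FPKM in S3, against 546 in S1 and 426 in S2. Of the 7 expressed ones 6 were lowest in S3, and none of the 10 was at 0. For counts of markers lowest in S3, here and below, the share over all expressed genes was not worked out. Without CLU, the gene of that list with the largest difference in FPKM, the other 9 summed to 130.1 FPKM in S3, against 220.7 and 192.2. In the Sertoli, Leydig, peritubular and leukocyte lists a single gene, picked out after its values were seen, made up most of the difference.

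The 6 Leydig cell markers summed to 7.575 FPKM in S3, against 17.8 in S1 and 14.7 in S2, with LHCGR listed at 0 in S1 and S3. CYP11A1, the first enzyme of steroid synthesis, had 2.64 FPKM in S3, against 12.01 and 9.75, and the other 5 summed to 4.93 FPKM, against 5.84 and 4.92. The 8 peritubular and fibroblast markers summed to 72.2 FPKM in S3, against 107.7 and 82.05, with 3 of the 7 expressed ones lowest in S3. TAGLN, a contractile protein gene, had 8.87 FPKM in S3, against 37.2 and 24.4, and without it the sum in S3, 63.35 FPKM, lay between 70.6 in S1 and 57.7 in S2. The 7 endothelial markers summed to 18.1 FPKM in S3, against 22.45 and 21.4, with 2 of the 4 expressed ones lowest in S3. The 8 leukocyte markers summed to 19.6 FPKM in S3, against 23.7 and 20.1, and without CD74 to 4.12 FPKM, against 4.11 and 4.08.

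The 7 germ cell markers summed to 656 FPKM in S3, against 555 in S1 and 544 in S2. Of the 7, 4 were highest in S3, beside 50.0% of all expressed genes. NANOS3, an RNA-binding regulator of germ cell maintenance chosen here after its values were seen, had 98.1 FPKM in S3, against 50.04 and 43.7. Without NANOS3 the other 6 summed to 558.0 FPKM in S3, against 504.6 in S1 and 500.4 in S2. The 13 mitochondrially encoded genes took 52.7% of the summed FPKM in S3, against 57.7% in S1 and 59.3% in S2.

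Set among 84 measured HLH and bHLH genes, TCF12 and TCF3 ranked 1 and 2 in every library. ID3 ranked 4 in S3 and 7 in S1 and S2, ID4 between 8 and 10, ID2 between 9 and 11, TCF4 between 10 and 16 and ID1 30 or 31. NEUROG3 ranked between 78 and 80. MXI1, a leucine zipper partner of MAX that antagonises MYC, ranked 3, at 57.9 ± 2.64 FPKM.

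Candidate partners of E proteins were mostly low. Of 36 measured tissue-specific bHLH genes, 7 lay above 1 FPKM, 24 below, 4 were not told apart from it and NEUROD6 was listed at 0 in all libraries; their median was 0.34 FPKM. When mitochondrial and ribosomal protein genes were left out, which rescales all others upwards, 15 lay above and 13 below. Over all genes, 13667 then lay above and 2924 below, against 11771 and 5111 as deposited. The highest were TWIST2, a factor of mesenchymal cells, at 13.35 ± 1.58 FPKM (SD, n = 3), MESP2, a factor of somite formation, at 6.92 ± 0.27, and HAND2, a factor of heart and limb development, at 3.57 ± 0.61. As deposited, the shares over all genes tested were 65.6% above and 28.5% below.

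Of 5 measured genes on the list of germ line bHLH factors, 3 lay above the level and 2 below, beside 65.6% and 28.5% of all genes tested. SOHLH2, needed for spermatogonial differentiation in mouse, had 13.0, 11.3 and 10.5 FPKM in S1, S2 and S3. TCFL5, a factor of male meiosis in mouse, had 9.24, 9.14 and 12.1 FPKM, and NHLH2, which is known mainly from neurons and not as a spermatogonial factor, averaged 1.97 ± 0.64 FPKM. FIGLA, the oocyte factor, averaged 0.373 ± 0.155 FPKM and lay below the level (limma, adjusted p = 0.000444). SPZ1 lay below it as well, with 0.473 FPKM in S1 and values listed at 0 in S2 and S3. The count of 2 below became 1 without S1. It became 0 once mitochondrial and ribosomal protein genes were left out, where 2924 of all genes lay below, against 5111 as deposited.

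Together the germ line and tissue-specific bHLH factors summed to 69.1 FPKM in S1, 59.96 FPKM in S2 and 62.9 FPKM in S3. The E protein sum was 2.26, 2.43 and 2.95 times as large in the same order. Among the 3 measured NEUROG3 targets known from the pancreas, NKX2-2 averaged 2.40 ± 0.39 FPKM and NEUROD1 1.65 ± 0.19 FPKM, both above 1 FPKM, and PAX4 averaged 0.143 ± 0.081 FPKM and lay below.

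The other bHLH families are set beside 65.6% above and 28.5% below over all genes tested. Of 13 HES, HEY and BHLHE40 type repressors, which bind DNA themselves and largely act after Notch and other signals, 9 lay above the level and 4 below, shares near those of all genes. BHLHE40, a regulator of circadian and stress responses, averaged 20.05 ± 2.84 FPKM, HEY2 9.63 ± 0.33 and BHLHE41 6.51 ± 1.27, and HES3 was lowest at 0.0895 ± 0.0466. Of 22 bHLH leucine zipper genes 20 lay above and MYCL lay below. MAX, the common partner of MYC and MXD proteins, averaged 42.3 ± 5.64 FPKM and USF2, a ubiquitous E-box factor, 41.8 ± 6.09 FPKM.

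**Figure D4:**
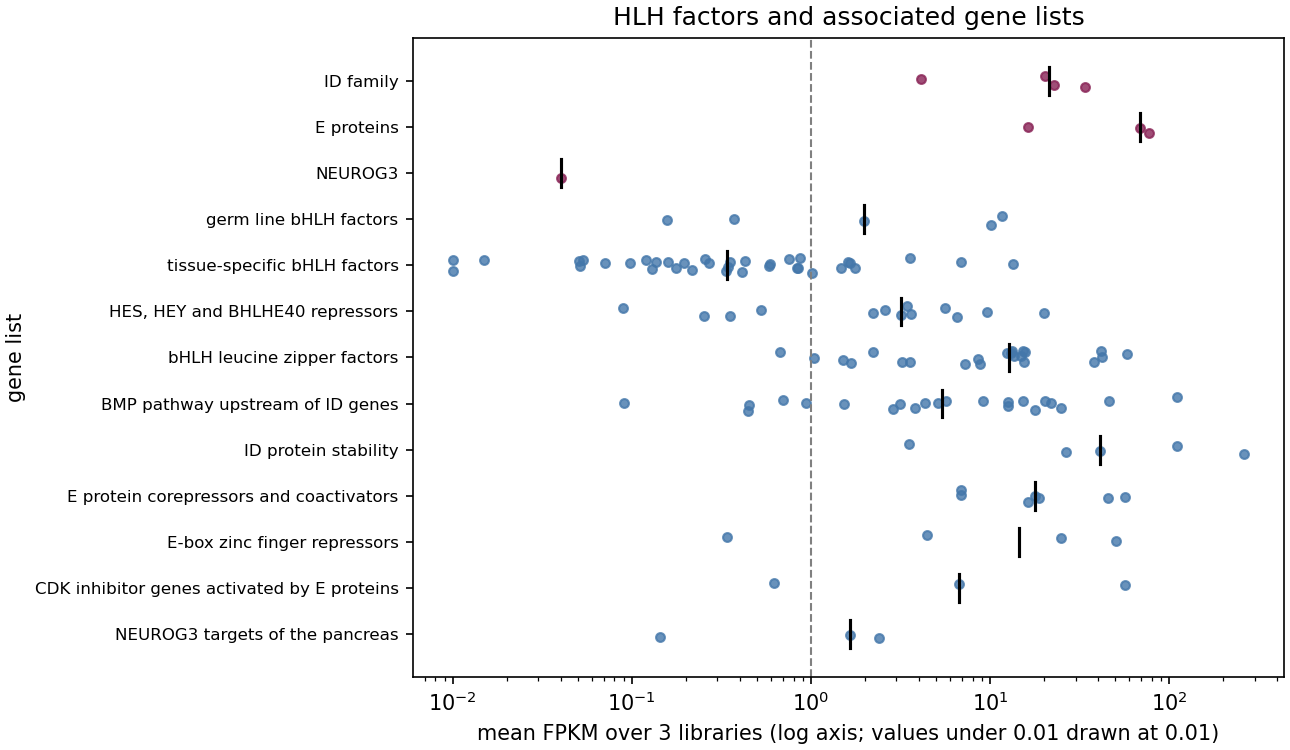
Mean FPKM over 3 libraries on a log axis for every measured gene of each list; points are genes, black bars are list medians, the dashed line is 1 FPKM, and vertical scatter within a row only separates points. The E protein median of 68.9 FPKM and the ID median of 21.5 FPKM stand right of the line, and the tissue-specific bHLH median of 0.34 FPKM stands left of it.

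BMP signalling, which induces ID genes through SMAD1, SMAD5 and SMAD9 with SMAD4, had transcripts of ligands, receptors and SMAD genes. Of 22 measured genes 17 lay above 1 FPKM, 4 below and 1 was not told apart, against backgrounds of 65.6% and 28.5%. Without the mitochondrial and ribosomal protein genes 21 lay above and 1 below, beside 13667 and 2924 of all genes. The common mediator SMAD4 averaged 111.1 ± 4.90 FPKM, SMURF2, a ubiquitin ligase that limits SMAD signalling, 46.4 ± 1.605, and the inhibitory SMAD6 24.9 ± 1.66.

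The following BMP pathway genes were chosen after their values were seen. The receptors ACVR1, BMPR2, BMPR1A and BMPR1B averaged 17.8 ± 0.33, 12.6 ± 0.84, 12.6 ± 1.32 and 9.10 ± 0.60 FPKM. Of the receptor-activated SMAD genes, SMAD1 averaged 20.2 ± 1.30 FPKM and SMAD5 15.3 ± 1.14. SMAD9 had 28.7 FPKM in S3, against 19.5 in S1 and 17.5 in S2, and so was highest in the library in which ID3 and ID4 were highest. BMP4 had 6.56 FPKM in S3, against 4.63 and 4.26, whereas BMP2 had 2.67 FPKM in S3, against 4.64 and 4.10. Over the 17 expressed genes of the list 8 were highest in S3, near the 50.0% of all genes.

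All 5 measured genes for the turnover of ID proteins lay above 1 FPKM, as did 65.6% of all genes tested. WDR48, the activating partner of the deubiquitinase USP1, had 245 FPKM in S1, 251 FPKM in S2 and 291 FPKM in S3, and USP1, which removes ubiquitin from ID proteins in human cells, averaged 111.2 ± 4.92 FPKM. On the side of breakdown, the anaphase-promoting complex subunit CDC27 averaged 41.3 ± 2.07 FPKM and its activators FZR1 and CDC20 26.5 ± 2.89 and 3.52 ± 0.32 FPKM.

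All 7 genes of E protein cofactors also lay above the level, beside the same 65.6% of all genes. The acetyltransferase coactivators EP300 and CREBBP averaged 56.7 ± 2.09 and 45.45 ± 5.07 FPKM. Of the ETO family corepressors, RUNX1T1 had 23.5 FPKM in S3, against 15.6 in S1 and 17.4 in S2, CBFA2T3 had 20.0 FPKM in S3, against 14.7 and 14.1, and CBFA2T2 averaged 6.88 ± 0.60 FPKM. LDB1 and LMO2, which join E proteins in larger complexes in blood cells, averaged 17.7 ± 0.93 and 6.85 ± 1.09 FPKM. Of the 7 genes 6 were highest in S3, as were 50.0% of all expressed genes.

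Zinc finger repressors that compete for E-boxes were represented by ZEB1 at 50.3 ± 8.09 FPKM, ZEB2 at 24.75 ± 1.20 and SNAI1 at 4.43 ± 0.40. These lay above the level, and SNAI2 lay below it at 0.338 ± 0.098 FPKM (limma, adjusted p = 7.3e-05). Once mitochondrial and ribosomal protein genes were left out, SNAI2 was no longer called below. Beside these and the next calls stand 65.6% above and 28.5% below over all genes tested. Of the cell cycle inhibitor genes known to be activated by E proteins, CDKN1A averaged 56.7 ± 10.3 FPKM and CDKN2A 6.71 ± 0.80. CDKN2B averaged 0.620 ± 0.176 FPKM and lay below the level as deposited (limma, adjusted p = 0.00579), but above it once mitochondrial and ribosomal protein genes were left out. CDKN1A was highest in S3, at 67.8 FPKM, against 54.9 in S1 and 47.4 in S2. The 3 genes did not move together: CDKN2A was highest in S1, at 7.23 FPKM against 7.11 in S3, and CDKN2B was lowest in S3, at 0.475 FPKM.

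The genes most like ID4 were sought among 14905 genes with a symbol, by the Euclidean distance of log2(FPKM + 1) over the 3 libraries, which weighs both level and profile. The nearest were VPS28 at a distance of 0.078, TIAM1 at 0.085, PFDN4 at 0.091, SELENOH at 0.101 and SDC2 at 0.108. VPS28 had 19.7, 19.2 and 27.01 FPKM in S1, S2 and S3, close to the values of ID4. Among the other 7 genes ID2 was nearest, at rank 204 and a distance of 0.317, followed by TCF4 at rank 1471 and ID3 at rank 1904. With 3 libraries such likeness describes these values only.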

How the data were processed

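RNA of 3 libraries was measured after depletion of ribosomal RNA, with directional libraries read as pairs on an Illumina instrument, per the labels' protocols. Per the submitters' processing notes, reads were aligned with HISAT2 2.0.4 and Cuffdiff made the values. The unit of the deposited values is FPKM per the labels' protocols, although the name of the table says TPM; columns sum to 859642, 855276 and 781871 for S1, S2 and S3, which settles neither. Coordinates are left out, since susScr3 and Sscrofa11.1 both appear in those notes. The column names do not tell which labelled sample each is.

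Values under 1e-06 (170 genes) were set to 0, and 781 genes at 0 in all libraries were left out, leaving 17949. Symbols came from the table, or from a reference table where it gave none; rows whose 2 symbols differ (334) were used only where the reference symbol was the list gene, as for CDKN2A. log2(FPKM + 1) was tested with limma 3.58.1 (R 4.3.3; intercept only, eBayes with trend, two-sided). In simulated data over 17949 genes, the test called 6.5% of 200 genes placed at the level, 88.0% of 200 at 1.5 FPKM, 95.5% of 200 at 2.0 FPKM and 90.5% of 200 at 0.5 FPKM. The added 1 makes changes of low genes look smaller than they are. Neighbours in the order were compared by an exact sign-flip test, adjusted over 7 pairs.

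The members, 10 further gene lists and 6 marker lists were chosen with earlier results of these data known. The text names the 8 genes, the 3 highest and the lowest of each list, lists of up to 7 genes in full, the 2 highest of each marker list and the 5 genes nearest to ID4; some are left out for brevity, 1 is not reported here, and others are said to be chosen later. Alternatives were a pseudocount of 0.1, a minimum mean of 0.5 FPKM, a level of 5 FPKM, no trend, both rescalings and leaving out each library.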

Additional observations from a re-analysis of the deposited data

How the results depend on the processing

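The 7 genes above 1 FPKM and NEUROG3 below it were called alike in 70 of 71 alternative values, the exception being ID1, not told apart from a level of 5 FPKM (-0.23, limma adjusted p = 0.0555). No order of neighbours turned in 35 alternative values, which was fixed in advance. Each difference had the same sign in every library. A pseudocount, a rescaling of whole libraries or a left-out library cannot turn such a sign. NEUROG3 was not tested with a minimum mean of 0.5 FPKM, so 0 of the 8 genes lay below the level there. No paired analysis was possible because the libraries form 1 group. Without counts, how depth touches the low values could not be tested.

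The ratio of ID to E protein sums, 0.495, was 0.358 as a ratio of geometric means and 0.289 without ID3, each by construction, and 0.470 to 0.508 when 1 library was left out. With a minimum mean of 0.5 FPKM, which leaves out low genes, 798 of all genes, 2 tissue-specific bHLH, 1 HES or HEY and 1 BMP pathway genes lay below the level, and 0 germ line bHLH, 0 E-box zinc finger and 0 pancreas target genes. With mitochondrial and ribosomal protein genes removed, which rescales the rest upwards, 13667 genes lay above and 2924 below. There 15 tissue-specific bHLH genes lay above and 13 below, 1 HES or HEY and 1 BMP pathway gene lay below, and 0 germ line bHLH, 0 leucine zipper, 0 E-box zinc finger and 0 CDK inhibitor genes did. After rescaling to 1000000, 0 leucine zipper genes lay below.

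Against 5 FPKM, 7632 of all genes were above and 9130 were below; above it were 2 tissue-specific bHLH, 3 HES or HEY, 10 BMP pathway and 0 pancreas target genes, and below it 9 HES or HEY, 7 leucine zipper, 8 BMP pathway, 1 ID stability (CDC20) and 3 pancreas target genes. Germ line bHLH genes below the level numbered 1 to 2 when 1 library was left out, with 1 without S1.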
